A study of Mus musculus with 10 samples.

Results

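The Ly6 genes Ly6d, Ly6a, Ly6c1, Ly6c2 and Ly6e were taken by symbol, and all 5 were measured among the 23152 genes of the array. They encode small surface antigens of blood cells, and several of them give bone marrow sorting antibodies their targets. RNA came from progenitors sorted from the marrow of adult C57BL/6 mice, with no genotype change or treatment named for any group. Ly6D+ common lymphoid progenitors (CLPs) and Ly6D− CLPs were hybridised to 2 arrays each, and both were lineage negative, low for cKit and Sca-1, high for Flt3 and positive for CD127, the receptor chain for interleukin-7. CD127+ and CD127− lymphoid-primed multipotent progenitors (LMPPs) were hybridised to 3 arrays each, and both were lineage negative and high for cKit, Sca-1 and Flt3. Ly6D protein divided the CLPs and was not part of the LMPP gates, and Sca-1, the product of Ly6a, separated LMPPs from CLPs. The labels do not say whether arrays of a group came from separate animals or sorts, so p-values measure the spread between arrays, which may be technical. The LMPP samples and the CLP samples carry separate runs of deposit numbers. If they were also processed apart, cell type and processing cannot be told apart in any difference between CLPs and LMPPs.

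Ly6 proteins belong to the Ly6/uPAR family, whose members carry a compact fold of disulphide-linked loops, and most are held on the outer membrane by a glycosylphosphatidylinositol (GPI) anchor. Ly6D marks the CLPs that are committed towards B cells. Sca-1 is used to isolate stem cells and early progenitors, Ly6C to divide monocytes, and Ly6E is found on thymocytes and many other cells. Expression of Ly6a, Ly6c and Ly6e is known to rise with interferon in several cell types.

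Gene values are the mean log2 signal of the probe sets that carry that symbol alone. Values at or below 4.53, the 95th percentile of 1423 olfactory, vomeronasal and taste receptor genes, were treated as low signal. Arrays of 1 group correlated at 0.972 to 0.986 over all genes, and arrays of different groups at 0.955 to 0.981. Ly6D− CLP array 1 stood closer to the Ly6D+ CLP arrays (r = 0.979 and 0.977) than to its own mate (r = 0.972), while its Ly6d value of 5.59 lay far below theirs. The sort was visible in Il7r, which encodes CD127 and was 4.77 log2 higher in CD127+ than in CD127− LMPPs (SE 0.192, limma adjusted p = 1.03e-06). Il7r averaged 4.32 in CD127− LMPPs, under the low-signal limit. Kit was lower in CLPs than in LMPPs in all 4 comparisons, with differences of -1.65 to -0.71 log2, and the smallest of these calls, in Ly6D− CLPs against CD127+ LMPPs, was lost without any 1 array of either group.

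Ly6d, the gene of the CLP gate, differed between every pair of groups. Its values were 11.31 and 11.35 in Ly6D+ CLPs, 5.59 and 6.17 in Ly6D− CLPs, 8.67, 8.81 and 8.53 in CD127+ LMPPs, and 4.77, 4.91 and 4.61 in CD127− LMPPs. No 2 groups overlapped, and the CD127− LMPPs lay just above the low-signal limit. CD127+ LMPPs, which were not sorted on Ly6D, thus stood 3.90 log2 above CD127− LMPPs (SE 0.168, 14.98-fold, limma adjusted p = 1.03e-06). By size this difference ranked 2 among the 23152 genes. The arrays hold bulk RNA, so more cells with the transcript and more transcript per cell cannot be told apart.

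The Ly6D− CLPs carried less Ly6d transcript than the CD127+ LMPPs. The difference was -2.79 log2 (SE 0.188, 6.90-fold lower, limma adjusted p = 0.00031), and it ranked 9 of 23152 genes by size. Because the gate removed CLPs with Ly6D on the surface, this low value partly restates the sort. The same holds for the 5.45 log2 by which Ly6D+ CLPs exceeded Ly6D− CLPs (SE 0.205, 43.6-fold, limma adjusted p = 6.43e-07), which is given as a check of the sort. Ly6d still was 1.12 log2 higher in Ly6D− CLPs than in CD127− LMPPs (SE 0.188, 2.17-fold, limma adjusted p = 0.00614), a call that its brightest probe set alone did not give (0.87 log2, adjusted p = 0.064). Ly6D+ CLPs stood 2.66 log2 above CD127+ LMPPs (SE 0.188, 6.33-fold, limma adjusted p = 9.95e-05). Against CD127− LMPPs they stood 6.57 log2 higher (SE 0.188, 94.8-fold, limma adjusted p = 2.68e-08). Ly6D+ CLPs were gated for Ly6D on the surface, so both of these differences partly restate the sort.

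**Figure D1:**
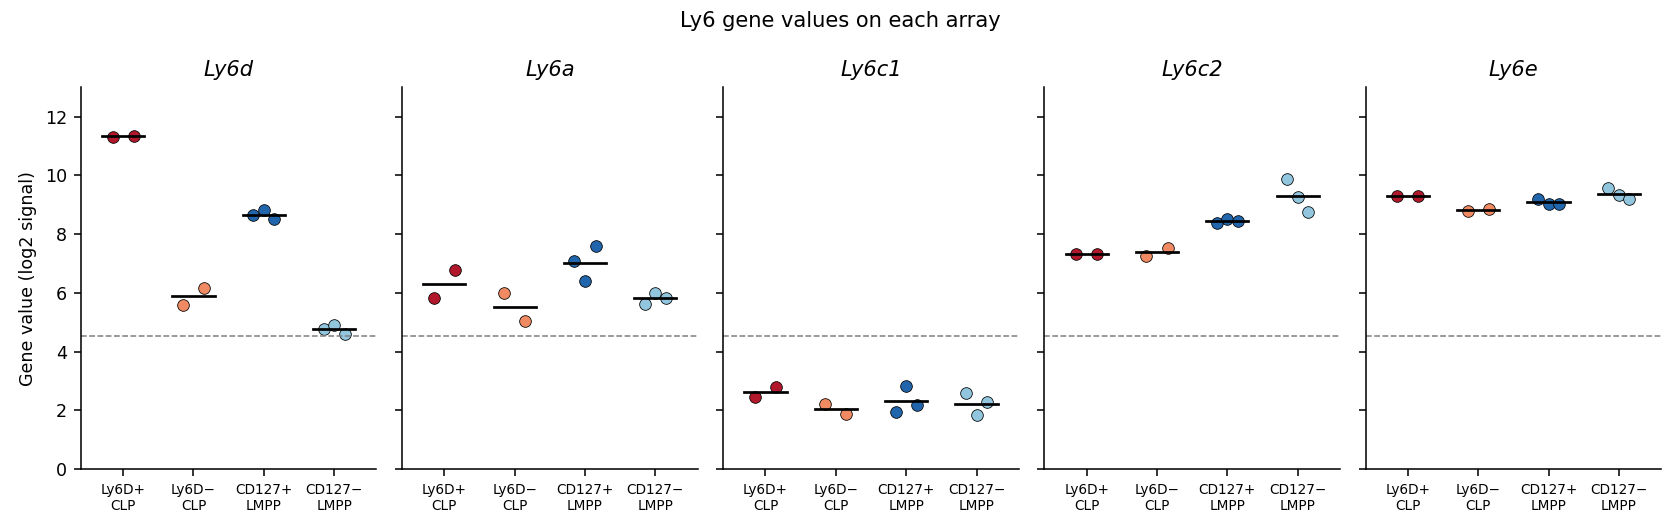
Gene value (log2 signal) of the 5 Ly6 genes on each of the 10 arrays, by sorted group; points are arrays, black bars are group means, and the dashed line is the low-signal limit of 4.53. Ly6d separates all 4 groups, Ly6c2 is highest on the CD127− LMPP arrays, and Ly6c1 stays under the limit on every array.

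All 4 probe sets of Ly6d gave the same order of groups, with Ly6D+ CLPs highest, then CD127+ LMPPs, then Ly6D− CLPs, and CD127− LMPPs lowest. The size of the LMPP difference depended on the probe set. It was 4.48, 3.99 and 4.79 log2 (CD127+ minus CD127−) on the first 3 probe sets and 2.36 on the fourth, which read 8.44 in CD127+ LMPPs and 6.09 in CD127− LMPPs. In Ly6D− CLPs the third probe set gave 4.15 on array 1 and 5.62 on array 2, the widest gap between arrays of 1 group for this gene. Over the 10 arrays, the gene values most like those of Ly6d belonged to Vpreb2 (Pearson r = 0.956, Spearman rho = 0.879), Ebf1 (r = 0.942, rho = 0.988) and Ipcef1 (r = 0.942, rho = 0.939), among 10957 genes compared. Arrays of a group share a sort gate, so these correlations mostly describe 4 group levels.

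**Figure D2:**
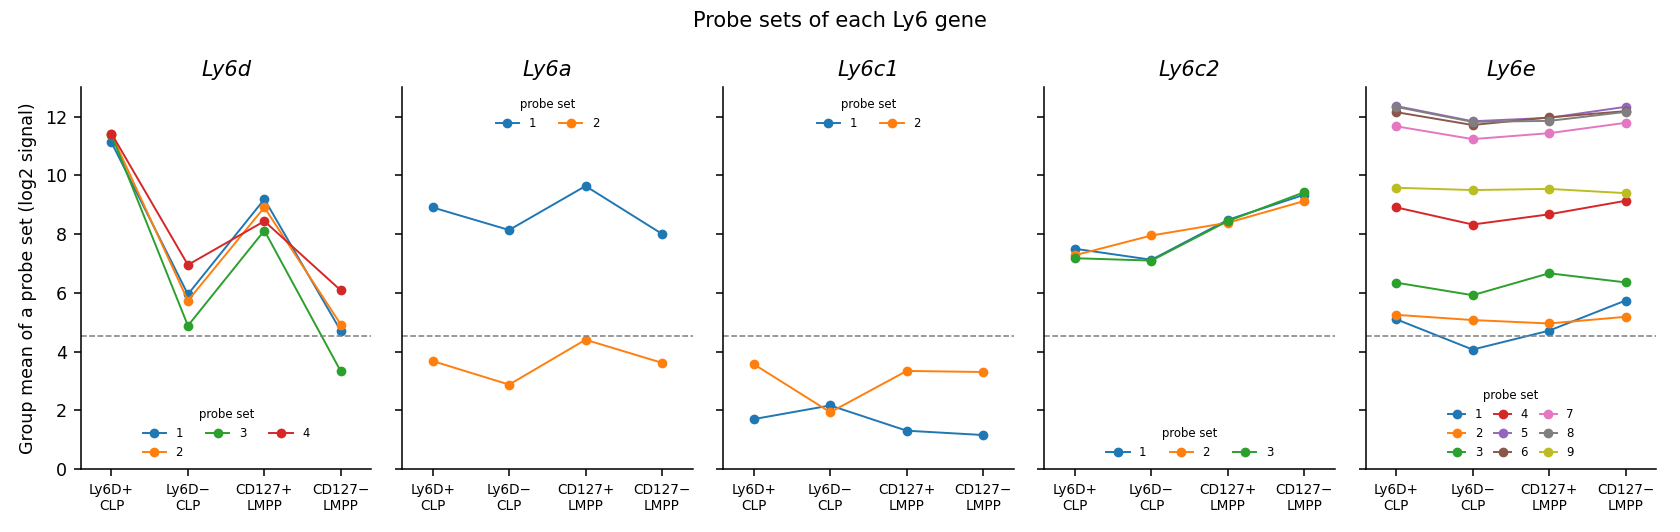
Group means (log2 signal) of every probe set annotated to each Ly6 gene, numbered within the gene in array order; lines join the 4 groups of 1 probe set and the dashed line is the low-signal limit of 4.53. The 4 Ly6d probe sets keep 1 order of groups, 1 of 2 Ly6a probe sets lies above the limit, and both Ly6c1 probe sets lie below it.

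Ly6a, which encodes Sca-1, gave a mixed picture against the Sca-1 gate at the transcript level, and single arrays moved its differences. Its values were 5.83 and 6.77 in Ly6D+ CLPs, 5.98 and 5.04 in Ly6D− CLPs, 7.08, 6.41 and 7.58 in CD127+ LMPPs, and 5.63, 5.99 and 5.82 in CD127− LMPPs. The Sca-1 high CD127− LMPPs lay among the Sca-1 low CLPs. Ly6D+ CLPs minus CD127− LMPPs gave 0.48 log2 (95% interval -0.35 to 1.31, limma adjusted p = 0.479). Ly6D− CLPs minus CD127− LMPPs gave -0.31 log2 (95% interval -1.13 to 0.52, adjusted p = 0.696). Without Ly6D+ CLP array 1 the first difference was 0.95 log2, and without array 2 it was 0.0098. Without Ly6D− CLP array 1 the second was -0.78 log2, and without array 2 it was 0.16. Both intervals are wide, so neither difference shows equal levels. Surface protein was not measured on the arrays.

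Ly6a differences between CLPs and CD127+ LMPPs were negative, the direction of the Sca-1 gate, and neither passed the test. The difference was -1.51 log2 in Ly6D− CLPs (SE 0.375, limma adjusted p = 0.0665) and -0.73 log2 in Ly6D+ CLPs (SE 0.375, adjusted p = 0.331). The second was -0.26 log2 without Ly6D+ CLP array 1, -1.20 without array 2 and -0.45 without CD127+ LMPP array 3. CD127+ minus CD127− LMPPs gave 1.21 log2 with no overlap between the arrays (SE 0.336, adjusted p = 0.148). The gene value averages a bright and a dim probe set, and the dim one had group means of 2.88 to 4.41, all under the low-signal limit. The bright one read 8.66 and 9.16 in Ly6D+ CLPs, 7.99 and 8.29 in Ly6D− CLPs, 9.74, 9.29 and 9.88 in CD127+ LMPPs, and 7.86, 7.97 and 8.20 in CD127− LMPPs. On it every CD127+ LMPP array lay above every array of the other groups.

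With the bright probe set in place of the mean, CD127+ LMPPs passed the test against CD127− LMPPs (1.63 log2, SE 0.230, limma adjusted p = 0.0256). Ly6D− CLPs were then lower than CD127+ LMPPs (-1.50 log2, SE 0.258, adjusted p = 0.0396). Leaving out every dim probe set of the array gave adjusted p-values of 0.00582 and 0.0172 for these differences, and leaving out dim genes gave 0.0285 for the second. With dim probe sets out, Ly6D+ CLPs also exceeded CD127− LMPPs by 0.90 log2 (SE 0.227, adjusted p = 0.0296), against the direction of the Sca-1 gates. That difference passed under only 1 of 17 alternatives. With the bright probe set in place of the mean it was the same 0.90 log2 and did not pass. The gene values most like those of Ly6a over the 10 arrays were those of Ermap (r = 0.911, rho = 0.879), Rhd (r = 0.908, rho = 0.830) and Ank1 (r = 0.888, rho = 0.879). The Ly6a gene value includes the dim probe set, which read 1.79 to 5.28 on single arrays. Ank1 had group means of only 4.01 to 4.60. How far these correlations follow signal near the limit was not tested.

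Ly6c2 and Ly6c1 encode closely similar forms of Ly6C, and they differed in whether they gave signal at all. Ly6c2 was highest in CD127− LMPPs and lowest in CLPs. Both Ly6c1 probe sets had group means under the low-signal limit in every group, so no fold is given for it. The genes are near copies, and the probe letters were not used here, so how far the probe sets of one also read the other cannot be told. The stretches just upstream of both genes are shown because they are the sequence that precedes the pair's transcripts, one with signal here and one without. The letters are from RefSeq on GRCm38.p6, minus strand, at chr15:75048921-75049056 for Ly6c1 and chr15:75112088-75112221 for Ly6c2, and capitals mark bases that have no identical partner in the alignment.
Ly6c1: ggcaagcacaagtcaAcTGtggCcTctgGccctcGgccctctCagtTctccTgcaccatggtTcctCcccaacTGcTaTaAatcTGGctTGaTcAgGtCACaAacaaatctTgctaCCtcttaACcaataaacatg
Ly6c2: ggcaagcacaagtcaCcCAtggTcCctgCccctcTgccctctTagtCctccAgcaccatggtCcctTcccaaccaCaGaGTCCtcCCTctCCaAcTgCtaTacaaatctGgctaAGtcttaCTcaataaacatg
Of 130 aligned bases, 102 were the same, or 78.5%. In the windows from 250 bases before to 50 after each start, the letters TATAAA stood in that of Ly6c1 and not in that of Ly6c2, and in 13.6% of 32851 RefSeq promoter windows, counting both strands. GAGGAA, the core read by PU.1-type factors, stood in both and in 28.3% of all windows, and TTCNNNGAA, the site of interferon gamma activated STAT factors, in neither and in 8.3%. A GAGGAA can form the end of a TTCNNNGAA, and TATAAA shares no such stretch. A match describes the letters only.

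The Ly6c2 values were 7.32 and 7.33 in Ly6D+ CLPs, 7.25 and 7.54 in Ly6D− CLPs, 8.39, 8.50 and 8.44 in CD127+ LMPPs, and 9.89, 9.27 and 8.75 in CD127− LMPPs. The LMPP groups did not overlap each other or the CLPs, whereas the CLP groups overlapped. Ly6c2 was lower in Ly6D+ CLPs than in CD127− LMPPs (-1.98 log2, SE 0.263, 3.94-fold, limma adjusted p = 0.00103). It was also lower in Ly6D− CLPs than in CD127− LMPPs (-1.91 log2, SE 0.263, 3.75-fold, adjusted p = 0.00222), although not with the brightest probe set alone (-1.17 log2, adjusted p = 0.110). Ly6D+ CLPs minus CD127+ LMPPs gave -1.12 log2 (SE 0.263, 2.17-fold, adjusted p = 0.0399). That call was lost when any 1 of the 5 arrays was left out, with differences of -1.15 to -1.09 log2 and adjusted p-values of 0.0902 to 0.189, and with the median (adjusted p = 0.0513) or brightest probe set (adjusted p = 0.140).

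The other Ly6c2 differences did not pass the test. Ly6D− CLPs minus CD127+ LMPPs gave -1.05 log2 (SE 0.263, limma adjusted p = 0.0683), which passed with quantile normalization (-1.12 log2, adjusted p = 0.0487), with dim genes left out (adjusted p = 0.0284) and with trend and robust settings (adjusted p = 0.0325). CD127+ minus CD127− LMPPs gave -0.86 log2 (SE 0.235, adjusted p = 0.141). Without CD127− LMPP array 3 this became -1.13 log2 (adjusted p = 0.0251), and without array 1 of that group -0.57 log2 (adjusted p = 0.352). Between the CLP groups the difference was -0.07 log2 (95% interval -0.71 to 0.56, adjusted p = 0.961). Each of the 3 Ly6c2 probe sets had its highest group mean in CD127− LMPPs. The gene values most like those of Ly6c2 were those of Rab32 (r = 0.980, rho = 0.891), Clec4d (r = 0.979, rho = 0.927) and Gar1 (r = 0.976, rho = 0.927).

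Ly6c1 read 2.47 and 2.81 in Ly6D+ CLPs, 2.23 and 1.88 in Ly6D− CLPs, 1.96, 2.84 and 2.19 in CD127+ LMPPs, and 2.59, 1.83 and 2.29 in CD127− LMPPs. All 10 values lay under the low-signal limit, and the 6 differences had limma adjusted p-values of 0.421 to 0.939. Pfdn2 (r = 0.890), Gpr52 (r = 0.864) and Tspan18 (r = 0.860) had the values most like it, which at this signal is a description without weight.

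Ly6e, the least variable of the 4 members with signal, varied by less than a log2 unit over all arrays. Its values were 9.31 and 9.30 in Ly6D+ CLPs, 8.80 and 8.87 in Ly6D− CLPs, 9.21, 9.04 and 9.01 in CD127+ LMPPs, and 9.57, 9.32 and 9.21 in CD127− LMPPs. The Ly6D− CLP arrays were the lowest of all, and no difference passed the test with limma, with 2 of 6 at an unadjusted p under 0.05. The largest, Ly6D− CLPs minus CD127− LMPPs, was -0.53 log2 (95% interval -0.86 to -0.20, limma adjusted p = 0.0617). It passed with limma's trend and robust settings (adjusted p = 0.00364), with dim genes (adjusted p = 0.0215) or dim probe sets left out (adjusted p = 0.0481) and with quantile normalization (adjusted p = 0.0438). With the median of its 9 probe sets in place of their mean it was -0.060 log2 (adjusted p = 0.931). Singly, the probe sets gave -1.67 to 0.11 log2 there, and only probe set 9 was positive. Ly6D+ minus Ly6D− CLPs gave 0.47 log2 (95% interval 0.10 to 0.83, adjusted p = 0.440), and 0.079 log2 with the median probe set (adjusted p = 0.965). On the CLP arrays that median was probe set 9, which gave the smallest difference. Each of the 9 probe sets was higher in Ly6D+ CLPs, by up to 1.03 log2. Of its 9 probe sets, 7 had their lowest group mean in Ly6D− CLPs and 4 their highest in CD127− LMPPs. The values most like those of Ly6e were those of Kctd10 (r = 0.929, rho = 0.806), Stk4 (r = 0.929, rho = 0.915) and Derl2 (r = 0.928, rho = 0.927).

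Set by comparison, the members passing the test at an adjusted p of 0.05 were few, and Ly6d was among them each time. Ly6D gated the CLPs, so the Ly6d call is not free of the sort in any comparison with a CLP group. Only the comparison of the LMPP groups holds no group gated on Ly6D. In CD127+ against CD127− LMPPs, 1 of 5 passed, where 1.47% of all genes did in either direction, and in Ly6D+ against Ly6D− CLPs it was 1 of 5 beside 0.0993%, the gate gene itself. Between Ly6D− CLPs and CD127+ LMPPs, 1 of 5 passed beside 2.06%. Between Ly6D+ CLPs and CD127+ LMPPs, 2 of 5 passed beside 4.03%, with Ly6d higher and Ly6c2 lower, and any 1 array left out made this 1 of 5. Between Ly6D− CLPs and CD127− LMPPs, 2 of 5 passed beside 7.1%, and in Ly6D+ CLPs against CD127− LMPPs 2 of 5 beside 10.9%, again with Ly6d higher and Ly6c2 lower. The median member difference was 0.09, 0.59, -1.05, 0.21, -0.31 and 0.40 log2 in these 6 comparisons, beside medians of all genes between -0.01 and 0.02. The medians 0.09, 0.59 and 0.40 are the differences of Ly6c1, which lay under the low-signal limit on every array, so they are without weight. The comparisons share groups and are not independent. Among the members, Ly6d and Ly6c2 ran against each other over the 10 arrays (r = -0.57), Ly6c2 and Ly6e together (r = 0.59), and Ly6d and Ly6a together (r = 0.49), given as descriptions of the same 4 groups.

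**Figure D3:**
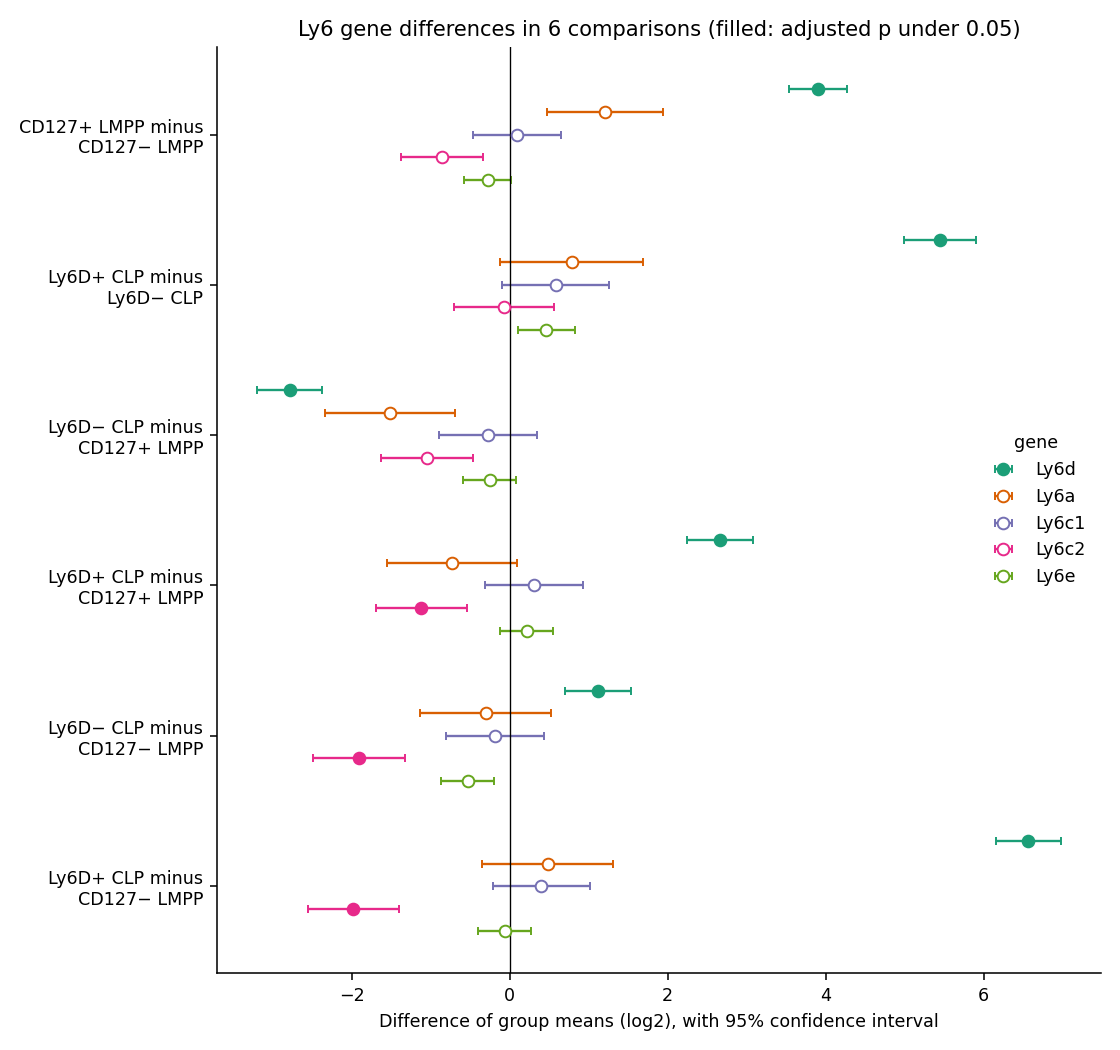
Differences of group means (log2, first group minus second) of the 5 Ly6 genes in 6 comparisons, with 95% confidence intervals from limma; filled points have an adjusted p under 0.05. Ly6d is filled in all 6 comparisons, from -2.79 to 6.57, and Ly6c2 in 3, from -1.98 to -1.12.

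The 5 genes lie on chromosome 15 in a run of 39 annotated genes from Psca to 9030619P08Rik in the RefSeq order, of which 22 were measured and 12 had a group mean above the low-signal limit. Of the measured genes beside Ly6d, chosen for description after their values were seen, Lynx1 and Ly6k were higher in Ly6D+ CLPs than in either LMPP group. Lynx1, which encodes a modulator of nicotinic acetylcholine receptors, directly adjoins Ly6d. It read 7.01 and 7.87 in Ly6D+ CLPs, 5.58 and 5.60 in Ly6D− CLPs, 5.71, 5.89 and 5.89 in CD127+ LMPPs, and 5.58, 5.51 and 5.25 in CD127− LMPPs. Both Ly6D+ CLP arrays lay above all other arrays on 6 of 6 probe sets. Lynx1 averaged 5.59 in Ly6D− CLPs and 5.83 in CD127+ LMPPs, the pair between which Ly6d differed by -2.79 log2.

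Lynx1 was 1.99 log2 higher in Ly6D+ CLPs than in CD127− LMPPs (SE 0.225, limma adjusted p = 0.000359) and 1.61 log2 higher than in CD127+ LMPPs (SE 0.225, adjusted p = 0.00375). The second of these calls was lost with the brightest probe set (0.65 log2, adjusted p = 0.117). Against Ly6D− CLPs the difference was 1.85 log2 (SE 0.246, adjusted p = 0.0225), and this call was lost without Ly6D− CLP array 1 (adjusted p = 0.0675), without array 2 (adjusted p = 0.134) and without Ly6D+ CLP array 2 (1.42 log2, adjusted p = 0.0896). It was also lost with the median (adjusted p = 0.0848) or brightest probe set (adjusted p = 0.123), with the replicate block (adjusted p = 0.0618), with array weights (adjusted p = 0.0518) and with the CLP arrays fitted alone (adjusted p = 0.473), so 8 of 16 alternatives ended it. Ly6k lies past 2 annotated genes on the other side of Ly6d and gave 5.13 and 5.48 in Ly6D+ CLPs, 4.63 and 4.38 in Ly6D− CLPs, 4.57, 4.52 and 4.79 in CD127+ LMPPs, and 4.63, 4.49 and 4.42 in CD127− LMPPs. Both Ly6D+ CLP arrays lay above all other arrays on 5 of its 9 probe sets, and it did not pass against Ly6D− CLPs. It was 0.80 log2 higher in Ly6D+ CLPs than in CD127− LMPPs (SE 0.167, adjusted p = 0.0118), and 0.62 log2 higher without Ly6D+ CLP array 2 (adjusted p = 0.126). Against CD127+ LMPPs it was 0.68 log2 higher (SE 0.167, adjusted p = 0.0481), a call lost without any 1 of the 5 arrays (adjusted p = 0.0656 to 0.305). Ly6k averaged 4.51 in both Ly6D− CLPs and CD127− LMPPs, under the low-signal limit, and 4.63 in CD127+ LMPPs, just above it.

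**Figure D4:**
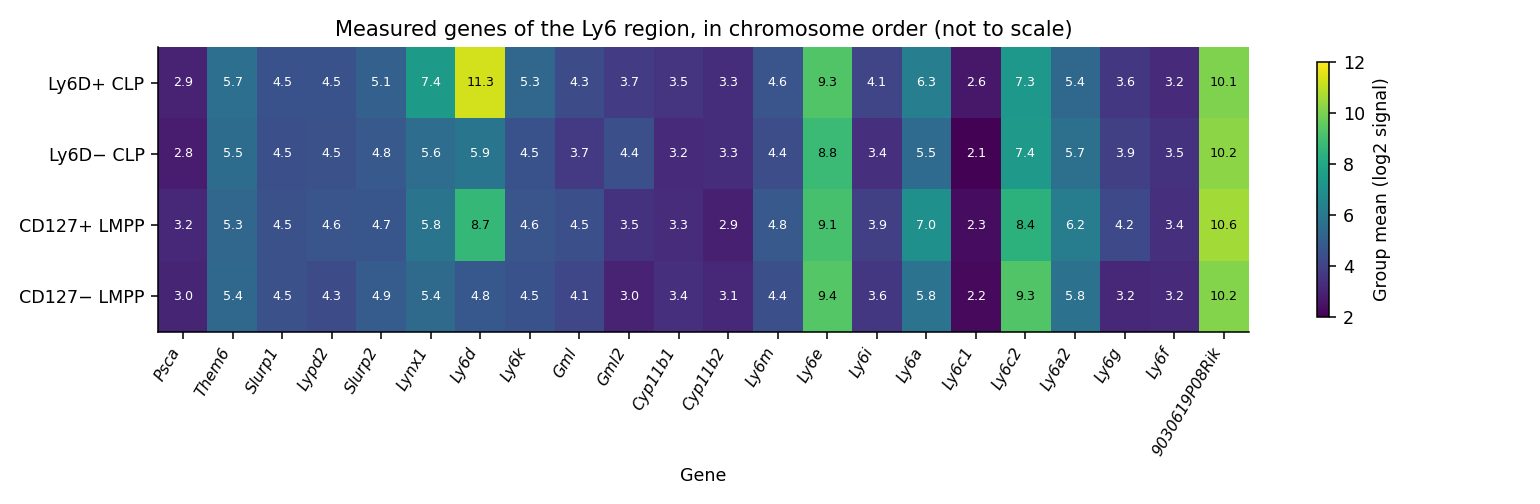
Group means (log2 signal) of the 22 measured genes of the chromosome 15 Ly6 region in RefSeq order, not to scale; each column is 1 gene, and levels are to be read down a column, not between genes. Ly6d changes over the 4 groups from 11.3 in Ly6D+ CLPs to 4.8 in CD127− LMPPs, and Lynx1 beside it is highest in Ly6D+ CLPs, at 7.4.

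Related genes and marker genes, taken as lists, were read against the share of all 23152 genes that passed in each direction. In CD127+ against CD127− LMPPs 0.881% were higher and 0.592% lower, and in Ly6D+ against Ly6D− CLPs 0.0389% and 0.0605%. Against CD127+ LMPPs, 0.635% were higher and 1.42% lower in Ly6D− CLPs, and 1.28% and 2.75% in Ly6D+ CLPs. Against CD127− LMPPs, 2.93% were higher and 4.17% lower in Ly6D− CLPs, and 3.93% and 6.94% in Ly6D+ CLPs. Dim genes count in these shares. With them left out, 3530 of 12864 genes passed in either direction in Ly6D+ CLPs against CD127− LMPPs, beside 2517 of 23152. Lists of genes with signal thus stand against a share that is low for such genes. The shares are also sensitive to single arrays. With 1 array of a compared group left out, genes passing in either direction were 165 to 275 between the LMPP groups (341 with all arrays) and 6 to 27 between the CLP groups (23). Against CD127+ LMPPs they were 76 to 180 in Ly6D− CLPs (476) and 194 to 507 in Ly6D+ CLPs (933), and against CD127− LMPPs 808 to 1151 in Ly6D− CLPs (1643) and 1001 to 2086 in Ly6D+ CLPs (2517).

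Of 38 other measured Ly6/uPAR family genes, 14 had a group mean above the low-signal limit, and few passed the test. With limma none passed between the LMPP groups, where 3 had an unadjusted p under 0.05, or in Ly6D− CLPs against CD127+ LMPPs, where 5 did. Lynx1 alone passed between the CLP groups, and Lynx1 and Ly6k in Ly6D+ CLPs against either LMPP group, all as given above. Gml2, listed as Hemt1 on the array, was 1.44 log2 higher in Ly6D− CLPs than in CD127− LMPPs (SE 0.234, limma adjusted p = 0.00524), with its group means under the low-signal limit, and was lost with the brightest probe set (adjusted p = 0.337) or with several-symbol probe sets added (adjusted p = 0.314). Plaur, the urokinase receptor that gave the family its name, read 8.17 in Ly6D+ CLPs, 7.89 in Ly6D− CLPs, 8.04 in CD127+ LMPPs and 7.70 in CD127− LMPPs and did not pass in any comparison. Ly6g, whose protein marks neutrophils, had group means of 3.15 to 4.22, all under the limit, although Ly6D+ CLP array 1 (4.72) and Ly6D− CLP array 2 (4.74) exceeded it. Its arrays did not overlap between CD127+ (3.84 to 4.47) and CD127− LMPPs (2.97 to 3.32), a difference of 1.07 log2 that did not pass (SE 0.514, adjusted p = 0.480) but did with the LMPP arrays fitted alone (adjusted p = 0.0335).

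GPI anchor assembly, which attaches most Ly6 proteins to the membrane, was read from 28 measured genes. All that passed were lower in CLPs than in LMPPs. Ly6D+ CLPs had 5 genes lower than CD127− LMPPs, with a list median of -0.29 log2 beside 0.02 for all genes. They were Pigy (-0.75), Dpm2 (-0.76), Gpaa1 (-0.76), Pign (-0.76) and Pigs (-0.66), which act in the synthesis of the anchor or its transfer to protein. Leaving out 1 of the 5 arrays gave 0 to 5 lower genes. Pigy was also lower in Ly6D− CLPs than in CD127− LMPPs (-1.11 log2, SE 0.150, limma adjusted p = 0.00194), under every alternative run. Against CD127+ LMPPs, Pigy (-0.87) and Dpm3 (-0.75) passed in Ly6D− CLPs and Dpm3 (-0.67) in Ly6D+ CLPs, and none of these calls was kept when an array was left out. With limma no gene of the list passed in CD127+ against CD127− LMPPs, where 6 had an unadjusted p under 0.05, or in Ly6D+ against Ly6D− CLPs, where 2 did.

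Among 16 other GPI-anchored surface genes of white cells, none passed with limma between the LMPP groups, between the CLP groups or in Ly6D+ CLPs against CD127+ LMPPs, where 2, 5 and 6 had an unadjusted p under 0.05. Prnp, the prion protein, was 1.80 log2 higher in Ly6D+ CLPs than in CD127− LMPPs and Thy1, a T cell and stem cell antigen, 1.18 log2 higher, while Cd14, the endotoxin co-receptor, fell by 1.15 and Cd48, a ligand of CD2 family receptors, by 0.73. Bst2 and Cd52 also were lower there, and leaving out 1 of the 5 arrays gave 0 to 2 genes in each direction. Cd14 (-1.08), Bst2 (-0.80) and Fcgr4 (-0.71) were lower in Ly6D− CLPs than in CD127− LMPPs, with 0 to 2 lower when 1 of the 5 arrays was left out. Fcgr4 (-0.86) and Bst2 (-0.71) were lower in Ly6D− CLPs than in CD127+ LMPPs, and neither call was kept when an array was left out. Every group mean of Fcgr4 lay under the low-signal limit, at 2.84 to 3.70. Prnp in CD127− LMPPs (3.53) and Cd14 in Ly6D− (3.73) and Ly6D+ CLPs (3.66) lay under it too.

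Interferon response genes were read because Ly6a, Ly6c2 and Ly6e are known interferon targets. Of 28 measured, 4 were higher in CD127+ than in CD127− LMPPs, led by the oligoadenylate synthase Oas2 (1.09 log2, SE 0.139, limma adjusted p = 0.00251) and Ifi44 (0.90), with Rtp4 (0.87) and Irf7 (0.74). The list median was 0.35 log2 beside -0.01 for all genes, and leaving out any 1 of the 6 arrays gave 1 to 3 higher genes. The Oas2 call was lost with the brightest probe set (0.99 log2, adjusted p = 0.339). In the same comparison Ly6a differed by 1.21, Ly6c2 by -0.86 and Ly6e by -0.28 log2, none of them past the test. Ly6D− CLPs had 6 genes higher and 1 lower than CD127− LMPPs, led by Ifi44 (0.99) and Rsad2 (0.96), and 1 to 4 higher without any 1 of the 5 arrays. Ly6D+ CLPs had 3 higher and 1 lower than CD127− LMPPs, with Ifi44 at 1.16 log2 (adjusted p = 0.00145) under every alternative run, and 1 to 2 higher without any 1 of the 5 arrays. Ifit3 (-2.03) and Bst2 (-0.71) were lower in Ly6D− CLPs than in CD127+ LMPPs, and 0 to 1 were lower without any 1 of the 5 arrays. Ifit3 averaged 3.78 in Ly6D− CLPs, under the low-signal limit.

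Ly6d stood beside a B lineage list of 20 measured genes, which includes the sorted Il7r. In CD127+ against CD127− LMPPs 6 were higher and none lower, among them Rag1 (3.22 log2), Ebf1 (2.57) and Blnk (2.39), which encode a recombinase subunit, a B lineage factor and a pre-B cell receptor adaptor. In CD127− LMPPs Rag1 (4.47) and Ebf1 (3.14) averaged under the low-signal limit. Rag1 (2.60) and Ebf1 (2.55) were the 2 that passed in Ly6D+ against Ly6D− CLPs, and 4 passed without Ly6D− CLP array 1. Both were lost when the CLP arrays were fitted alone (adjusted p = 0.0888). With limma, 12 of the 20 were higher and none lower between the CLP groups at an unadjusted p under 0.05. Ly6D+ CLPs had 12 higher than CD127+ LMPPs, and 5 to 8 with an array left out, other than CD127+ LMPP array 2, without which there were 12. They had 18 higher than CD127− LMPPs, and Ly6D− CLPs had 9.

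In Ly6D− CLPs against CD127+ LMPPs, 1 of the 20 B lineage genes passed, and 5 higher and 4 lower had an unadjusted p under 0.05. The list median was -0.06 log2, and the mean level of the list overlapped, at 5.93 to 6.02 on the Ly6D− CLP arrays and 5.84 to 6.05 on the CD127+ LMPP arrays. Spib was the gene that passed (0.82 log2 higher, adjusted p = 0.028), and not when any array was left out. Ebf1 averaged 5.30 in Ly6D− CLPs and 5.71 in CD127+ LMPPs. A p that misses the threshold does not show equal levels.

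Monocyte markers, like Ly6c2, had their highest level in CD127− LMPPs. The mean log2 level of 11 monocyte genes was 5.71 to 5.84 in Ly6D+ CLPs, 6.17 to 6.30 in Ly6D− CLPs, 6.09 to 6.45 in CD127+ LMPPs and 7.09 to 7.57 in CD127− LMPPs, and no gene of that list was under the low-signal limit on all arrays. In CD127+ against CD127− LMPPs 7 of 11 were lower, among them F13a1 (-3.09 log2), Ms4a6c (-1.97) and Csf1r (-1.89), which encode a clotting factor subunit, a membrane protein and the macrophage growth factor receptor. Against CD127− LMPPs, 6 were lower in Ly6D+ CLPs and 5 in Ly6D− CLPs, and their part in the Ly6c2 differences was not tested. Monocyte genes passing in Ly6D+ CLPs against CD127+ LMPPs were 3, all lower, and 1 to 2 without any 1 of the 5 arrays.

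Neutrophil genes, like Ly6d, were mostly higher in CD127+ than in CD127− LMPPs. The mean log2 level of 13 such genes was 6.74 to 7.32 in CD127+ LMPPs and 5.21 to 6.08 in CD127− LMPPs, and 7 were higher and 1 lower, with Camp at 3.63 and Mpo at -1.31 log2. Leaving out any 1 of the 6 arrays gave 3 to 6 higher genes. Ly6D+ CLPs read 5.04 to 5.52 and Ly6D− CLPs 5.19 to 5.35, each with 7 neutrophil genes lower than in CD127+ LMPPs, and 1 to 5 and 2 to 3 without any 1 of the 5 arrays. Their part in the Ly6 differences was not tested. The T cell markers Cd3e, Cd3d, Cd3g, Cd2, Cd4 and Cd8a, the mature B and plasma cell markers Ms4a1, Cr2, Fcer2a, Jchain and Prdm1, and the endothelial markers Cdh5, Kdr, Tek, Vwf and Esam were under the limit on all 10 arrays. These were 6 of 9, 5 of 9 and 5 of 8 measured genes of their lists. Others had signal, so the low readings do not show that such cells were absent. Group means were 6.47 to 7.90 for Lat and 5.72 to 6.26 for Sdc1. They were 6.69 to 7.11 for Xbp1 and 7.85 to 8.44 for Pecam1.

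Stem cell markers were read beside Ly6a, the gene of a stem cell antigen. The mean log2 level of 9 such genes was 5.31 to 5.42 in Ly6D+ CLPs, 5.73 to 5.76 in Ly6D− CLPs, 6.06 to 6.25 in CD127+ LMPPs and 5.85 to 6.14 in CD127− LMPPs. In Ly6D+ CLPs 5 were lower than in CD127+ LMPPs, with 1 to 4 when 1 of the 5 arrays was left out, and 4 were lower than in CD127− LMPPs. These included Hlf, a stem cell transcription factor (-1.49 and -1.69 log2), and Cd34, a sialomucin of progenitors (-1.06 and -1.23). Mecom was lower as well, but with its brightest probe set its differences were 0.24 and 0.48 log2. Gata2 alone was lower in Ly6D− CLPs, by -1.10 against CD127+ and -1.53 log2 against CD127− LMPPs, the first a call lost under 8 of 17 alternatives. In Ly6D+ CLPs Hlf (4.32), Mecom (4.05) and Gata2 (4.45) averaged under the low-signal limit, as did Gata2 in Ly6D− CLPs (4.26). The part of this list in the Ly6a values was not tested.

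Plasmacytoid dendritic cell markers had their highest group mean in Ly6D+ CLPs, with arrays that overlapped those of Ly6D− CLPs, and their lowest in CD127− LMPPs, as Ly6d did, and their part in its differences was not tested. The mean log2 level of 9 genes was 7.29 to 7.33 in Ly6D+ CLPs, 7.12 to 7.30 in Ly6D− CLPs, 6.95 to 7.07 in CD127+ LMPPs and 6.61 to 6.69 in CD127− LMPPs. Against CD127− LMPPs, 2 were higher and 1 lower in Ly6D+ CLPs, 3 higher and 1 lower in Ly6D− CLPs, and 3 higher and 1 lower in CD127+ LMPPs. Against CD127+ LMPPs, 1 was higher and 0 lower in Ly6D+ CLPs (limma, with 2 lower at an unadjusted p under 0.05), and 2 were higher and 1 lower in Ly6D− CLPs. None passed between the CLP groups, where 3 had an unadjusted p under 0.05. The lower genes were Bst2 in the CLPs and Irf8, a dendritic cell and monocyte factor, in CD127+ LMPPs (-1.03 log2). Siglech, a surface lectin of these cells, was 3.33 log2 higher in Ly6D+ CLPs than in CD127− LMPPs (SE 0.182, limma adjusted p = 2.58e-06) and 2.43 log2 higher than in CD127+ LMPPs (SE 0.182, adjusted p = 0.000133). Unlike Ly6d, Siglech was higher in Ly6D− CLPs than in CD127+ LMPPs, by 1.22 log2 (adjusted p = 0.0122), a call lost with the brightest probe set (adjusted p = 0.109), with these arrays fitted alone (adjusted p = 0.0650) and without Ly6D− CLP array 2 (adjusted p = 0.0702). Of the T cell list, Lat, Cd5 and Cd6, which act in or beside T cell receptor signalling, were higher in both CLP groups than in CD127− LMPPs, by 0.96 to 1.62 log2, and Lat (1.43) and Cd6 (1.04) also in CD127+ LMPPs. The Lat call in Ly6D− CLPs was lost under 6 of 17 alternatives, and the Cd6 call in CD127+ LMPPs under 5 of 18. Of the mature B cell list Ighm alone passed, at 0.66 log2 in Ly6D+ CLPs, 0.58 in Ly6D− CLPs and 0.79 in CD127+ LMPPs, each against CD127− LMPPs, calls lost under 3 of 17, 12 of 17 and 6 of 18 alternatives. Of the endothelial list Emcn alone passed, lower in Ly6D+ CLPs than in CD127+ (-1.57) and CD127− LMPPs (-1.22). Emcn averaged 4.37 in Ly6D+ CLPs, under the low-signal limit.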

How the data were processed

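RNA of 10 samples was measured on Affymetrix arrays, after Trizol extraction and biotin labelling per the labels' protocols. The authors deposited values of 269751 probe sets, taken here as log2 signal because they run from 0.204 to 14.8. Affymetrix Power Tools is the software in the submitters' processing notes; how probes were summarised and normalized, the log base and the build are not given in the sources read. Array quartiles differed by at most 0.125 log2, so the values were used as they stand, and precision is limited by the number of arrays.

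Symbols came from GEO's platform annotation. Probe sets with 1 symbol (233753) were averaged into 23152 genes; 5106 with several symbols and 30892 with none stayed out. Ly6d had 4 probe sets, Ly6a 2, Ly6c1 2, Ly6c2 3 and Ly6e 9. Groups came from the labels. Group means of all 10 arrays were fitted with limma 3.58.1 in R 4.3.3, with Benjamini-Hochberg adjustment over all genes at 0.05, for the 6 pairs of groups; adjusted p-values and SE in the text are from this fit unless an alternative is named. The steps were tested on simulated data. The members and lists were chosen with earlier results of these data known, so they lend no independent support. Named genes were the 5 members in every comparison, up to 4 passing genes of each list (else the largest difference), and the 3 genes most correlated with each member among those with a group mean above the low-signal limit, without predicted, small RNA or receptor segment genes. Lists share members (Bst2, Irf7, Il7r). Further list genes were named where a count was 5 or fewer, or as a marker, after their values were seen. The fit was repeated after quantile normalization or centring arrays on their medians, with the median or brightest probe set of a gene, without dim probe sets or dim genes, with several-symbol probe sets added, with trend and robust settings, on the compared arrays only, with a replicate block or array weights, adjusting over all 6 comparisons, and leaving out each array. Replicate numbers were not treated as pairs. Upstream sequences are RefSeq's on GRCm38.p6, found for Ly6c1 and Ly6c2 and aligned with Biopython 1.88; the RefSeq gene table was used for names and gene order alone.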

Additional observations from a re-analysis of the deposited data

How the results depend on the processing

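Ly6d kept its call and direction under every alternative run in 5 of the 6 comparisons, the exception being Ly6D− CLPs against CD127− LMPPs with the brightest probe set, and Ly6c2 kept its call under every alternative in Ly6D+ CLPs against CD127− LMPPs. The count of Ly6 genes past the threshold moved as follows. In Ly6D− CLPs against CD127+ LMPPs (1 as reported) it was 2 with quantile normalization, the brightest probe set, dim probe sets left out, and trend and robust settings, and 3 with dim genes left out. In Ly6D+ CLPs against CD127+ LMPPs (2 as reported) it was 1 with the median or brightest probe set and 1 to 1 with single arrays left out. In CD127+ against CD127− LMPPs (1 as reported) it was 2 with the brightest probe set and with dim probe sets left out, and 1 to 2 with single arrays left out. In Ly6D− CLPs against CD127− LMPPs (2 as reported) it was 0 with the brightest probe set, and 3, with Ly6e added, with quantile normalization, dim probe sets left out, dim genes left out, and trend and robust settings. In Ly6D+ CLPs against CD127− LMPPs (2 as reported) it was 3, with Ly6a added, with dim probe sets left out. The causes were not tested.

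Differences that turned sign, none of them past the threshold after turning, were Ly6e in Ly6D+ CLPs against CD127− LMPPs (0.019 with the median probe set, 0.028 with the brightest, -0.14 to 0.037 with single arrays left out, the highest without CD127− LMPP array 1), Ly6a in Ly6D− CLPs against CD127− LMPPs (0.13 with the brightest probe set and with dim probe sets left out, -0.78 to 0.16 with single arrays left out, the highest without Ly6D− CLP array 2), Ly6c1 between the LMPP groups (-0.16 without CD127+ array 2 and -0.11 without CD127− array 2, range up to 0.28) and Ly6c2 between the CLP groups (-0.22 to 0.074, the highest without Ly6D− array 2). With the brightest probe set so did Xbp1 in Ly6D− CLPs against CD127+ LMPPs (-0.52), Mecom in Ly6D+ CLPs against CD127+ (0.24) and CD127− LMPPs (0.48), and Mmp8 in Ly6D+ CLPs against CD127− LMPPs (0.087). Of 126 differences past the threshold among the other named list genes, 43 held under every alternative.

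Same-numbered arrays of different groups showed little shared deviation (13 pairs, r = -0.04 to 0.13), and 4 of 10 arrays correlated best with their own number. Both arrays of a CLP group deviate equally and in opposite directions, so the 13 pairs are not independent. The check cannot decide whether the numbers pair the samples. With the replicate block, the LMPP difference of Ly6d was 3.90 log2 (limma adjusted p = 2.8e-05), no call of a Ly6 member changed, and 256 genes were called between the LMPP groups against 341 without it.

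Counts over all genes moved more. From 341, 23, 476, 933, 1643 and 2517 in the order CD127+ against CD127− LMPPs, Ly6D+ against Ly6D− CLPs, Ly6D− and Ly6D+ CLPs against CD127+ LMPPs, and Ly6D− and Ly6D+ CLPs against CD127− LMPPs, they became 160, 11, 105, 429, 824 and 1364 with the median probe set, 88, 11, 360, 931, 1093 and 1702 with the brightest, and 581, 78, 1398, 1954, 2551 and 3451 with trend and robust settings. With dim genes left out they became 530, 70, 1266, 1943, 2571 and 3530, over 12864 genes. With the compared arrays alone they were 271, 1, 22, 713, 664 and 2049. The block gave 8 between the CLP groups and 104 and 553 for the CLPs against CD127+ LMPPs, and array weights gave 13, 177 and 1423 there. Without dim probe sets the first 2 of these were 39 and 766, and adjustment over all 6 comparisons gave 192 between the CLP groups.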
